A study of Mus musculus with 80 samples.

Results

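RXR-DNA binding was compared between WT mice that received pioglitazone (Pio) with a high-fat diet (HFD-Pio) and WT mice that received Pio with control diet (Pio). The comparison used 10 RXR ChIP-Seq libraries, 5 livers in each group, chosen by group from the 80 samples of the series, of which 40 were ChIP libraries. All 10 livers came from male wildtype C57BL6/J mice, 5 months old, that had been on their diet for 12 weeks. Every mouse in the comparison was given Pio, so the groups differed in diet alone, and a difference between them is a difference under the drug. The other groups were WT mice without Pio and mice lacking PPARγ in the liver.

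RXR is a nuclear receptor that binds DNA together with a partner receptor, and PPARγ is one such partner. Pio is a thiazolidinedione, a drug that activates PPARγ, and PPARγ in a fat-loaded liver is known for turning on genes of fatty acid uptake and lipid droplets. A PPARγ-RXR pair recognizes a direct repeat of the letters AGGTCA with a spacer of 1 base, called DR1. ChIP-Seq finds the DNA recovered with an antibody against RXR, and a peak is a stretch where ChIP tags exceed the input library. Fold enrichment is the signal at the summit of a peak over that expected from the input around it.

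Peaks of the 10 libraries that overlapped were merged into 92453 sites, on chromosomes 1 to 19, X and Y of mm10 (GRCm38). A site or gene was called recurrent in a group when at least 3 of its 5 livers had a peak there. By this rule 2032 sites were recurrent on both diets, which was 48.4% of the 4195 sites recurrent on either diet. HFD-Pio livers had 14 recurrent sites with no peak in any Pio liver, 0.334% of the 4195, and Pio livers had 127 with no peak in any HFD-Pio liver, 3.03% of the 4195. Of the 2213 sites recurrent in HFD-Pio, 91.8% were recurrent in Pio, and of the 4014 recurrent in Pio, 50.6% were recurrent in HFD-Pio. These numbers rested on single livers: without HFD-Pio replicate 1, 4 or 5 the sites recurrent on both diets numbered 832, 833 and 974, and without Pio replicate 3 those in HFD-Pio only numbered 47 and those in Pio only 22. The great majority of sites, 83216 (90.01%), had a peak in a single library.

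The libraries differed in the fragment length that MACS2 estimated from them, and this difference cut across both diets. The estimate was 46 or 47 bp in HFD-Pio replicates 1, 4 and 5 and 45 to 48 bp in Pio replicates 2, 3 and 5, about the length of 1 sequenced tag. It was 169 and 184 bp in HFD-Pio replicates 2 and 3 and 191 and 263 bp in Pio replicates 1 and 4. MACS2 listed a longer alternative for 6 of the 6 short estimates, and a short alternative for some of the longer ones. The peaks of a library were about as wide as its estimate, with a median of 45 to 48 bp in the 6 libraries with a short estimate and 169 to 263 bp in the other 4. The measures per library, the numbers of sites and the sharing of peaks between livers are therefore also given by class. Each library held 2.04 to 4.26 megatags after removal of duplicates, and depth did not separate the diets (HFD-Pio minus Pio, 0.189 megatags, exact two-sided permutation p = 0.690).

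Sequences at coding sites are shown first, because many recurrent peaks lay on protein-coding sequence. Ndufa6 and Aldoa stand for sites found in all livers, Acsl5 and Rbmxl1 for sites found on 1 diet alone, and Pparg is shown because it encodes the receptor of the drug. Each is a window of 101 bases of mm10 around the summit, written 5′ to 3′ on the strand of the gene, and capitals mark bases inside the peak in most of the livers that had one. The Ndufa6 window (chr15:82354075-82354175, minus strand) and the Aldoa window (chr7:126797645-126797745, minus strand) had peaks in 10 of 10 livers. The Pparg window (chr6:115463181-115463281, plus strand) had peaks in 2 HFD-Pio and 4 Pio livers. The Acsl5 window (chr19:55294811-55294911, plus strand) had peaks in 3 HFD-Pio and 0 Pio livers. The Rbmxl1 window (chr8:78506048-78506148, minus strand) belongs to a merged site of 418 bp with peaks in 0 HFD-Pio and 4 Pio livers. Its summit base is not in capitals, so the peaks of these livers did not all cover it.
Ndufa6: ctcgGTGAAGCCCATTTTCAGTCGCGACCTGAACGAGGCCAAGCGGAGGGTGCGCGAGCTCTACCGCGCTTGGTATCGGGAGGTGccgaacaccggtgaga
Aldoa: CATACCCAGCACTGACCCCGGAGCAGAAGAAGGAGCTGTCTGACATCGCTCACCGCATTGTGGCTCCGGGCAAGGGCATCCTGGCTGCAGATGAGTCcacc
Pparg: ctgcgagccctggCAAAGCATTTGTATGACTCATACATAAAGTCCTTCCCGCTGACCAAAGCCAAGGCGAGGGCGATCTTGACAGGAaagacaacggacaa
Acsl5: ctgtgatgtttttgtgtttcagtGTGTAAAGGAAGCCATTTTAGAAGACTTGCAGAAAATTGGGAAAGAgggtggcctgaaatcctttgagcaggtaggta
Rbmxl1: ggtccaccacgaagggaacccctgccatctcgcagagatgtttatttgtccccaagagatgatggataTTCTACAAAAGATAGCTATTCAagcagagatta

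The same was seen in copies of coding sequence outside genes. Gm6170 (chr1:128521074-128521174, minus strand) is a pseudogene, and its window is set here beside the spliced coding sequence of Eef1a1, the elongation factor that brings aminoacyl-tRNA to the ribosome. Gm7308 (chr6:127282201-127282301, minus strand) is set beside that of Calm2, a calmodulin. Capitals mark the bases at which the copy and the coding sequence differ, 1 of 101 in the first pair and 2 of 101 in the second. Both pseudogenes had a peak in 10 of 10 livers.
Gm6170: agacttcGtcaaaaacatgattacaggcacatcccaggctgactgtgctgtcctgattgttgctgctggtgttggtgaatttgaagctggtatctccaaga
Eef1a1 coding sequence: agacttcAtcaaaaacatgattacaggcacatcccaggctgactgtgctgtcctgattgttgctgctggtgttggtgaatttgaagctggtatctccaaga
Gm7308: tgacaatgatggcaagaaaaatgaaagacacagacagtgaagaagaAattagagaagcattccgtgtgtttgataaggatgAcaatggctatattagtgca
Calm2 coding sequence: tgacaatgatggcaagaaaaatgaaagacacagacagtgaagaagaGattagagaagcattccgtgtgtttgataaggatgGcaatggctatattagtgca

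The number and placement of peaks did not differ between the diets beyond the spread of the livers. HFD-Pio replicates 1 to 5 had 17518, 2113, 4818, 11132 and 23929 peaks, and Pio replicates 1 to 5 had 6115, 14008, 33705, 1905 and 13844. The groups overlapped over nearly their whole range, and in both the lowest libraries were those with a longer fragment estimate. The mean log2 number of peaks was 13.07 ± 1.43 (SD, n = 5) in HFD-Pio and 13.21 ± 1.56 (SD, n = 5) in Pio (exact two-sided permutation p = 0.873, adjusted p = 0.873 over 5 measures). Peaks with a summit in an exon of a protein-coding gene made up 19.4% ± 12.9 (SD, n = 5) in HFD-Pio and 24.3% ± 6.43 (SD, n = 5) in Pio (exact permutation p = 0.437, adjusted p = 0.546). Livers of the HFD-Pio group split, with exon shares of 30.8% and 35.6% in replicates 1 and 4 and 8.45% to 13.1% in the other 3, while the Pio livers lay between 16.7% and 34.1%. Pseudogenes held 12.9% ± 7.195 (SD, n = 5) of peaks in HFD-Pio and 15.96% ± 4.96 (SD, n = 5) in Pio (exact permutation p = 0.429, adjusted p = 0.546). The covered length and the median fold enrichment gave exact permutation p-values of 0.413 and 0.405 (adjusted p = 0.546 for each). The smallest p that 5 livers against 5 can give in this test is 0.00794. With the assignments restricted to within the classes of fragment estimate, the 5 adjusted exact permutation p-values ran from 0.604 to 0.783.

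**Figure D1:**
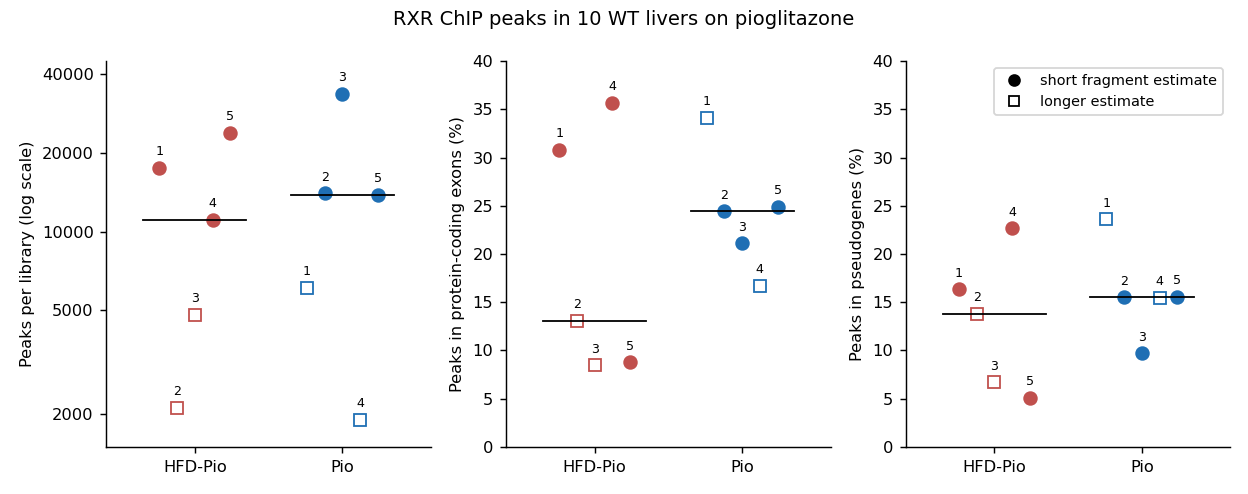
Peaks per library (log axis), percent of peaks in protein-coding exons and percent in pseudogenes for the 5 HFD-Pio (red) and 5 Pio (blue) livers, numbered by replicate; filled circles are libraries with a short fragment estimate, open squares those with a longer one, and lines are group medians. The groups overlap in all 3 panels, and the 4 libraries with a longer estimate hold 1905 to 6115 peaks against 11132 to 33705 in the other 6.

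Site by site, no call was made, and the test of livers with and without a peak had little room to make one. The smallest p that 1 site can reach with 5 livers against 5 is 0.00794, too large to pass the adjustment over 6076 sites unless very many sites reach it together. When the livers with and without a peak were set against each other by Fisher's exact test (two-sided), 0 of 6076 sites called in at least 3 of the 10 livers had an adjusted p below 0.05 (0% of those tested, smallest adjusted p = 1), and 24 (0.395%) had an unadjusted p below 0.05. Those 24 comprised 17 sites with peaks in 4 Pio and 0 HFD-Pio livers and 7 with peaks in 5 Pio livers and 1 HFD-Pio liver, and the opposite patterns were seen at 0 sites. At the 187 sites called in all 10 livers, limma on log2 fold enrichment, centred on the median of each liver, called 0 sites at an adjusted p below 0.05 (0% of 187, smallest adjusted p = 0.987) and 3 (1.6%) had an unadjusted p below 0.05. The differences at these 187 sites ran from -0.54 to 0.78 on the log2 scale, with a median SE of 0.31, and 0 sites reached a difference of 1. Fold enrichment at such sites followed the libraries. Its median over the 187 sites was 17.04, 4.65, 4.72, 17.4 and 8.11 in HFD-Pio replicates 1 to 5 and 9.92, 13.3, 20.04, 3.56 and 14.1 in Pio replicates 1 to 5. The 3 lowest livers were HFD-Pio replicates 2 and 3 and Pio replicate 4, all with a longer estimate.

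The sites with the smallest p in limma, none of which was called, lay in a coding exon and in pseudogenes. The smallest p among sites higher in HFD-Pio was at Gm49017, a pseudogene whose window matched the coding sequence of Eef1a1 (log2 difference 0.78, SE 0.29, limma adjusted p = 0.987). It was followed by the pseudogene Gm4617 (0.67, SE 0.28) and by a coding exon of Myl6, a myosin light chain (0.55, SE 0.26). Fold enrichment at Myl6 was 31.6, 8.46, 5.28, 23.3 and 13.9 in HFD-Pio and 9.28, 13.3, 33.7, 2.52 and 16.01 in Pio, and the groups overlapped. Among sites lower in HFD-Pio the smallest p was at Rps12-ps19, a copy of a ribosomal protein gene in an intron of Smg6 (log2 difference -0.54, SE 0.29), followed by Gm8203 in Tmcc1 (-0.46, SE 0.31) and Rps18-ps3 (-0.38, SE 0.30).

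**Figure D2:**
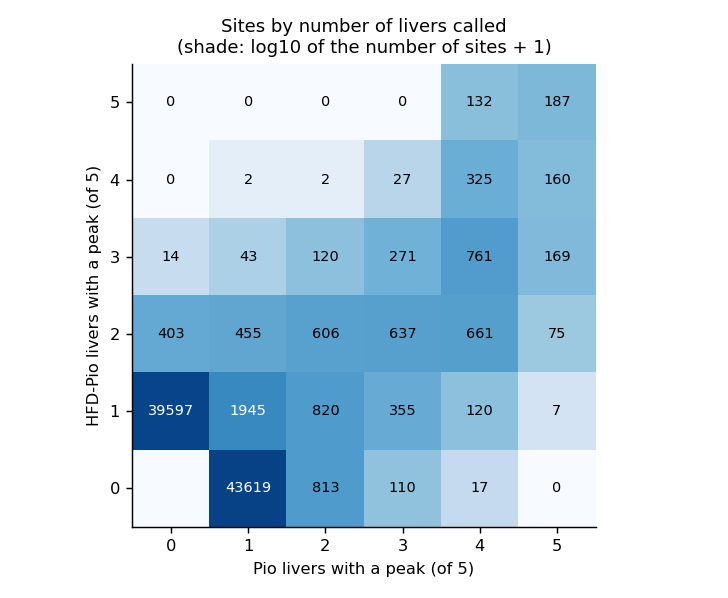
Number of sites by how many of the 5 Pio livers (x axis) and of the 5 HFD-Pio livers (y axis) had a peak; shade is the log10 of the number plus 1. Most sites sit at 1 liver of 1 group, 187 sites sit at 5 and 5, and the upper left corner (HFD-Pio without Pio) holds 14 sites at 3 livers and 0 above that.

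Sites recurrent on both diets were placed unlike the rest. Of the 2032, 45.5% had their summit in an exon of a protein-coding gene (38.1% in coding sequence, 6.55% in a 3′ UTR) and 41.5% in an annotated pseudogene. Outside pseudogenes and all annotated exons, those of noncoding genes included, lay 11.3%. Among the 83216 sites of a single library these shares were 7.603%, 1.25% and 90.5%. When the 101 bases around each summit were compared with mouse coding sequences, 72.2% of the sites recurrent on both diets matched one over at least 80 bases at 90% identity or more, against 4.63% of single-library sites and 10.1% of all sites. In pseudogenes 85.3% matched, at a median identity of 98.0%. Recurrence and the merging of peaks both depend on how strong a peak is, so these shares are given as a description. Of the 2032 sites, 95.4% had a peak in at least 1 library with a longer estimate. Under the rule of 3 in 5 livers a site lacked one only where the 3 libraries with a short estimate made it recurrent on each diet.

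The matched copies fell to a limited set of genes, of which the first 5 are named here after their values were seen. The 757 sites recurrent on both diets that lay outside protein-coding exons and matched a coding sequence fell to 278 genes, and 160 of these genes (57.6%) also had a site recurrent on both diets in an exon of their own. Gapdh, the glycolytic dehydrogenase, was matched by 26 such sites, Eef1a1 and Rpl21 by 18 each, Rpl15 by 17 and Rpl3 by 15. Gapdh itself had no site recurrent on both diets in its exons. Reads from a gene and a near-identical copy can be placed on either, so a peak at a copy and a peak at its parent cannot be told apart from these lists. Of the 229 sites outside exons and pseudogenes of GENCODE, 89 (38.9%) lay in a pseudogene of the RefSeq annotation or matched a coding sequence.

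**Figure D3:**
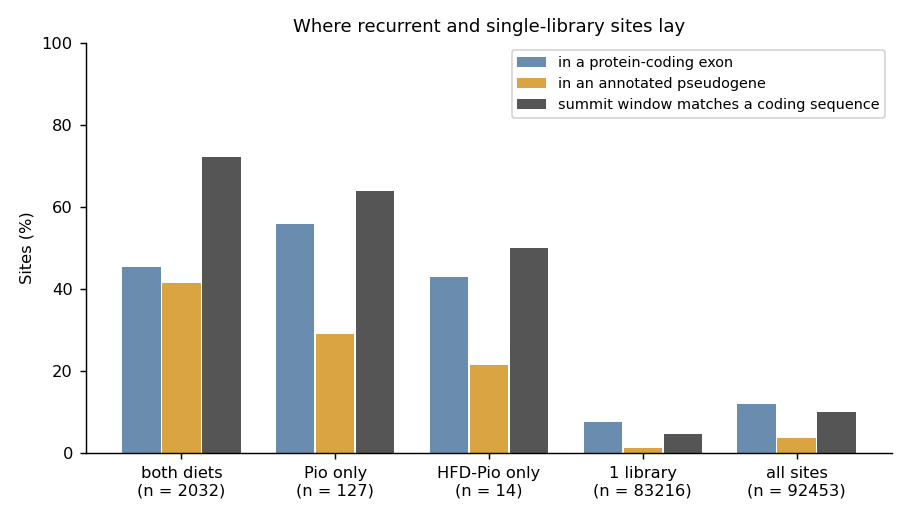
Percent of sites in a protein-coding exon, in an annotated pseudogene, and with a summit window that matches a mouse coding sequence, for sites recurrent on both diets, recurrent in 1 diet with no peak in the other, found in 1 library, and all sites. Bars start at 0; 72.2% of sites recurrent on both diets matched a coding sequence against 4.63% of sites found in 1 library.

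Direct repeats with a spacer of 1 or 4 bases were rare at all classes of site. Direct repeats of AGGTCA with a spacer of 1 base of any kind, with at most 1 mismatch in the 12 letters of the repeat and on either strand, were found within 100 bp of the summit at 2 of 2032 sites recurrent on both diets (0.0984%), at 1 of the 127 Pio sites and at 0 of the 14 HFD-Pio sites. The share over all 92453 sites was 0.246%, and over the 75318 single-library sites outside exons and pseudogenes it was 0.260%. A spacer of 4, the element of LXR with RXR, was found at 3 of the 2032 sites (0.148%) and at 0.109% of all sites. Spacers of 0, 2, 3 and 5 were found at 4, 0, 4 and 2 of the 2032 sites. A spacer of 3 was also found at 1 of the 14 HFD-Pio sites (0.111% of all sites). A spacer of 5 was found at 1 of the 127 Pio sites (0.0995% of all sites). Single sites are too few to compare with these shares. The same scan found the spacer of 1 at 0 of 89 recurrent sites of WT livers on control diet without Pio and at 0 of 50 on HFD without Pio. These are too few sites to compare with a share near 0.246%.

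Among the 8 shared sites named for their strength, 3 lay in exons of protein-coding genes, 4 in pseudogenes and 1 in neither. The site with the highest mean log2 fold enrichment was Rps19-ps6, a ribosomal protein copy in an intron of Tecpr2, at 32.3, 9.66, 5.23, 29.1 and 11.8 in HFD-Pio and 15.8, 21.7, 29.0, 4.23 and 21.6 in Pio. Its window was identical over 101 bases to the coding sequence of Rps19. The other 7 at the top were the Calm2 3′ UTR, an intergenic stretch at chr2:40555737-40557407, coding exons of Aldoa (the glycolytic aldolase) and Rpl36al, and the pseudogenes Rps3a3, Gm6170 and Gm7308. Aldoa had fold enrichments of 30.9, 7.12, 8.06, 19.5 and 15.8 in HFD-Pio and 12.4, 19.9, 20.6, 5.05 and 18.9 in Pio. At Rps19-ps6 and Aldoa the lowest values were those of HFD-Pio replicates 2 and 3 and Pio replicate 4, and the groups overlapped.

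At the level of genes, 2230 of 21938 protein-coding genes (10.2%) were recurrent in HFD-Pio, 2797 (12.7%) in Pio and 1714 (7.81%) on both diets. A gene was counted in a liver when any peak had its summit in it, within 5 kb upstream or within 1 kb downstream. For 965 of the 1714 genes at least 1 and the same site was recurrent on both diets. HFD-Pio alone had 52 genes (0.237%) with no peak in any Pio liver and Pio alone had 95 (0.433%). Without HFD-Pio replicate 1, 4 or 5 the genes on both diets numbered 824, 876 and 857, and without Pio replicate 3 those in HFD-Pio alone numbered 177 and those in Pio alone 8. The percentages over all genes are the background for the lists that follow. In these lists a count describes the members, which were chosen with earlier results known, and carries no test.

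Nuclear genes of oxidative phosphorylation, which encode the respiratory chain and ATP synthase, were recurrent on both diets in 32 of 79 members (40.5%, against 7.81% of all genes). HFD-Pio had 33 recurrent members and Pio 43. Of the 11 members recurrent in Pio but not in HFD-Pio, 9 had peaks in 2 HFD-Pio livers and 0 were absent from all 5. By complex, 11 of 37 members of complex I, 2 of 4 of complex II, 5 of 9 of complex III, 5 of 11 of complex IV and 8 of 15 of complex V were recurrent on both diets. The number of members with a peak was 49, 12, 14, 47 and 32 in HFD-Pio replicates 1 to 5 and 41, 44, 55, 12 and 47 in Pio replicates 1 to 5. The low livers were again HFD-Pio replicates 2 and 3 and Pio replicate 4, and those of the short class had 32 to 55.

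The 4 members named by rule had a peak in 10 of 10 livers. Ndufa6, a complex I subunit, had fold enrichments of 30.7, 3.88, 4.22, 29.5 and 8.82 in HFD-Pio and 12.2, 18.7, 37.3, 5.43 and 20.7 in Pio. Atp5b, the catalytic beta subunit of ATP synthase, had 29.4, 8.64, 6.14, 21.7 and 14.7 in HFD-Pio and 12.7, 21.4, 29.8, 4.64 and 15.03 in Pio. The other members were Atp5g3 and Atp5a1, further ATP synthase subunits, with mean fold enrichments over the 10 livers of 16.6 and 13.8. For none of these genes did the groups separate.

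Other mitochondrial lists also lay above 7.81%. In the tricarboxylic acid cycle and pyruvate list 12 of 23 members (52.2%) were recurrent on both diets, 12 in HFD-Pio and 17 in Pio. Mdh1, the cytosolic malate dehydrogenase, had fold enrichments of 21.6, 6.20, 3.88, 19.1 and 8.24 in HFD-Pio and 9.91, 16.8, 22.8, 6.62 and 10.3 in Pio. Suclg1, a succinyl-CoA ligase subunit, also had a peak in 10 of 10 livers, Idh3g in 4 and 4, and Pdha1, of pyruvate dehydrogenase, in 3 HFD-Pio and 5 Pio livers. Of mitochondrial carriers and channels 9 of 22 (40.9%) were recurrent in HFD-Pio, in Pio and on both. Slc25a5, an ADP/ATP carrier, had 24.8, 8.29, 7.04, 32.1 and 8.28 in HFD-Pio and 9.73, 17.3, 33.7, 4.47 and 16.99 in Pio. Vdac2, a channel of the outer membrane, was called in 10 livers, and Vdac1 and the phosphate carrier Slc25a3 in 3 HFD-Pio and 5 Pio livers each.

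Lists of protein synthesis and turnover had the higher shares. Cytosolic ribosomal protein genes were recurrent on both diets in 56 of 85 (65.9%), with 59 in HFD-Pio and 66 in Pio. Rpl36al, Rps18, Rps3 and Rpl13a had a peak in 10 of 10 livers, with mean fold enrichments of 13.5 to 15.03. Translation factors reached 20 of 31 (64.5%), led by Eef1a1 at 26.7, 3.98, 7.95, 29.8 and 12.6 in HFD-Pio and 13.8, 20.5, 22.3, 4.61 and 15.1 in Pio. Pabpc1, Eif1 and Eef1g followed. Chaperones reached 17 of 30 (56.7%), with Hspa5 and Ppib, both of the endoplasmic reticulum, in 10 livers, and Hspe1 and Ppia in 9. Canx, the chaperone calnexin, had peaks in 3 Pio livers, at 2.81 to 3.65, and in 0 HFD-Pio livers.

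Proteasome and ubiquitin genes were recurrent on both diets in 22 of 28 members (78.6%), with 22 in HFD-Pio and 27 in Pio. All 14 members of the 20S core were recurrent on both diets, and 5 of 11 of the 19S cap, of which 10 were recurrent in Pio. Ubb, Psma6 and Psmb5 had a peak in 10 livers. Splicing factors reached 20 of 26 (76.9%), with Hnrnpa2b1 and the helicase Ddx5 in 10 livers and Srsf2 and Pcbp2 in 9. Actins and tubulins reached 15 of 18 (83.3%), with 6 of 6 actins and 9 of 12 tubulins. Actb, Actg1, Acta1 and Acta2 had peaks in 10 livers, and Acta1, the actin of skeletal muscle, had the highest mean of these (19.1). Actin coding sequences are nearly identical, so reads may be shared between the genes. Calm2, a calmodulin, also had a peak in 10 livers.

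**Figure D4:**
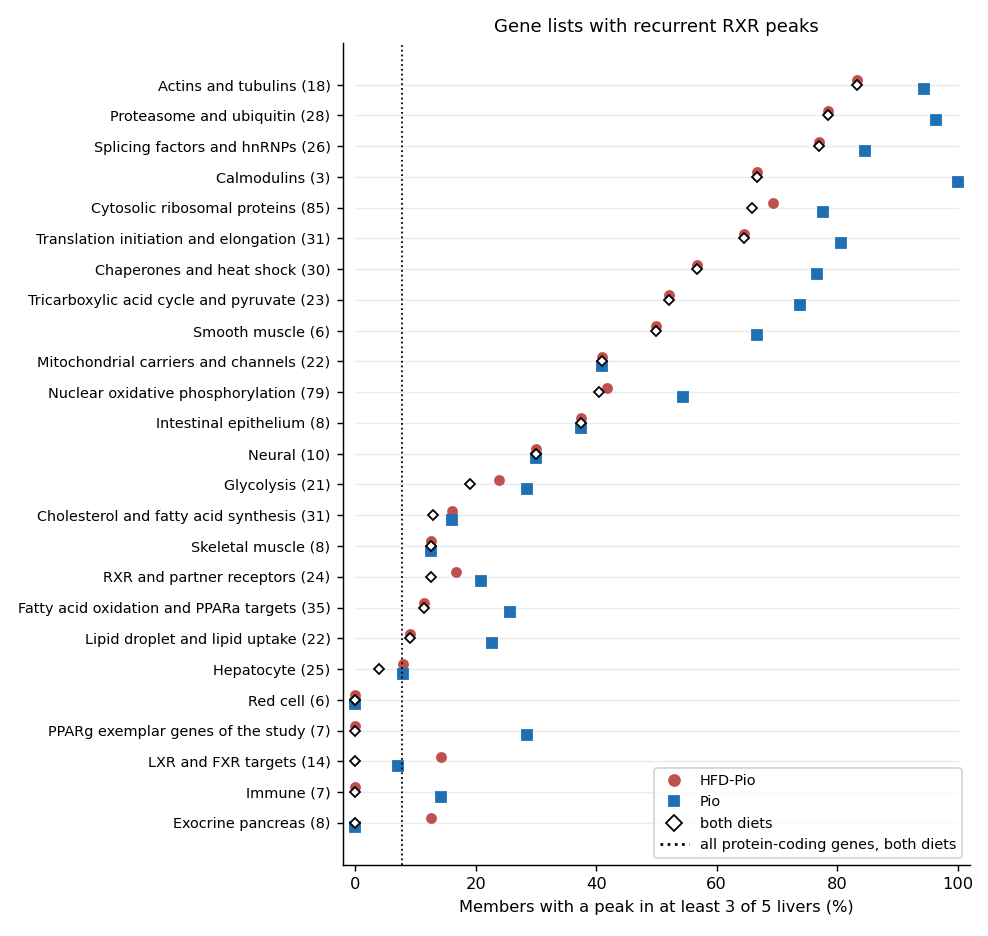
Percent of the members of each gene list (number of members in brackets) with a peak in at least 3 of 5 HFD-Pio livers (red circles), in at least 3 of 5 Pio livers (blue squares), and on both diets (open diamonds); the dotted line is the 7.81% of all protein-coding genes. Lists of mitochondrial, ribosomal, proteasome and cytoskeletal genes lie to the right of the line, and the open diamonds of lipid genes, receptors and liver markers lie nearer to it, with the blue squares of 3 lipid lists at 22.7% to 28.6%.

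In lipid genes the share recurrent on both diets lay nearer to the background, while the share recurrent in Pio lay above the 12.7% of all genes in the lists of oxidation, of lipid droplets and of exemplar targets. This was not particular to them. Cholesterol and fatty acid synthesis genes were at 16.1% in Pio and in HFD-Pio, and receptor genes at 20.8% and 16.7%, against 10.2% of all genes in HFD-Pio. The list of fatty acid oxidation genes and PPARα targets had 4 of 35 members (11.4%) recurrent on both diets, 4 in HFD-Pio and 9 in Pio (25.7%). Of the 5 members recurrent in Pio but not in HFD-Pio, 4 had peaks in 2 HFD-Pio livers. Members with a peak numbered 17, 1, 3, 12 and 6 in HFD-Pio replicates 1 to 5. In Pio replicates 1 to 5 they numbered 8, 11, 17, 2 and 11, and the groups overlapped. Etfb was called in 4 and 4 livers, and Hadha and Hadhb, the subunits of the mitochondrial trifunctional protein, in 3 HFD-Pio livers each and in 5 and 4 Pio livers. Neither Hadha nor Hadhb had a single site recurrent on both diets. Cholesterol and fatty acid synthesis genes reached 4 of 31 (12.9%), namely Acacb and Acaca (acetyl-CoA carboxylases), Fdft1 and Hmgcs1. Acacb had a peak in an exon in 0 livers, and Acaca in 0 HFD-Pio livers and 1 Pio liver. Acaca and Hmgcs1 had no single site recurrent on both diets. Counted by peaks in exons, 1 of 31 (3.23%) was recurrent on both diets, against 3.45% of all genes. Acly, which makes cytosolic acetyl-CoA, had peaks in 3 HFD-Pio livers at 2.75 to 2.86 and in 0 Pio livers. Glycolytic genes reached 4 of 21 (19.05%), namely Aldoa, called in 10 livers, Tpi1, Pkm and Ldha, with 5 recurrent in HFD-Pio and 6 in Pio. Ldha had no single site recurrent on both diets.

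In the lipid droplet and lipid uptake list 2 of 22 members (9.09%) were recurrent on both diets, 2 in HFD-Pio and 5 in Pio (22.7%). Of the 3 members recurrent in Pio but not in HFD-Pio, 1 had peaks in 2 HFD-Pio livers and 0 were absent from all 5. Members with a peak numbered 6, 1, 2, 3 and 1 in HFD-Pio replicates 1 to 5. In Pio replicates 1 to 5 they numbered 4, 5, 7, 0 and 5, and the groups overlapped. Fabp1, the liver fatty acid binding protein, had fold enrichments of 8.35, 5.98, 5.55 and 11.2 in HFD-Pio replicates 1 to 4, with no peak in replicate 5, and of 4.32, 8.64, 9.40 and 7.76 in Pio replicates 1, 2, 3 and 5, with none in replicate 4. Pnpla3 was called in 3 and 3 livers, at 3.81 to 7.36, with a peak in an exon in 0 of them. It had no single site recurrent on both diets. Targets of LXR and FXR were recurrent on both diets in 0 of 14 members, with 2 in HFD-Pio and 1 in Pio.

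Exemplar target genes of PPARγ were recurrent on both diets in 0 of 7 members, with 0 in HFD-Pio and 2 in Pio (28.6%). Cav1, caveolin of the cell membrane, had peaks of 2.81 and 3.81 in 2 HFD-Pio livers and of 4.49, 3.74, 5.47 and 2.82 in 4 Pio livers, and each of these livers had a peak in an exon. Cd36, the fatty acid transporter, had 3.81 and 3.66 in 2 HFD-Pio livers and 2.74, 3.65, 4.44 and 3.75 in 4 Pio livers, and 1 of these livers had a peak in an exon. Cidec, a lipid droplet protein, had 3.81 and 3.66 in 2 HFD-Pio livers and no peak in Pio. Mogat1 had a peak of 3.75 in 1 Pio liver, and Cfd, Fabp4 and Plin4 had none in any of the 10. These values are close to the median of all peaks of a library, 3.52 to 4.56.

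Receptor genes were recurrent on both diets in 3 of 24 (12.5%), namely Pparg, Rarb and the coactivator Ncoa1. Rarb was called in 4 and 4 livers at 2.82 to 5.32, outside its exons, and Ncoa1 in 4 and 3 at 3.52 to 5.47. Ncoa1 had a peak in an exon in 1 HFD-Pio and 1 Pio liver. Neither Rarb nor Ncoa1 had a single site recurrent on both diets. Pparg had fold enrichments of 6.19, 7.62 and 3.66 in HFD-Pio replicates 1, 4 and 5 and of 6.84, 6.55, 9.11 and 4.69 in Pio replicates 1, 2, 3 and 5. It had no single site recurrent on both diets. Its 11 sites lay in 7 coding exon stretches, 3 introns and 1 3′ UTR stretch, and the introns had 1 liver each. The site printed above had 2 HFD-Pio and 4 Pio livers, and so did another coding site at chr6:115473089-115473293. Rxra had 1 peak, of 3.65 in 1 Pio liver, and Rxrb and Rxrg had none.

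**Figure D5:**
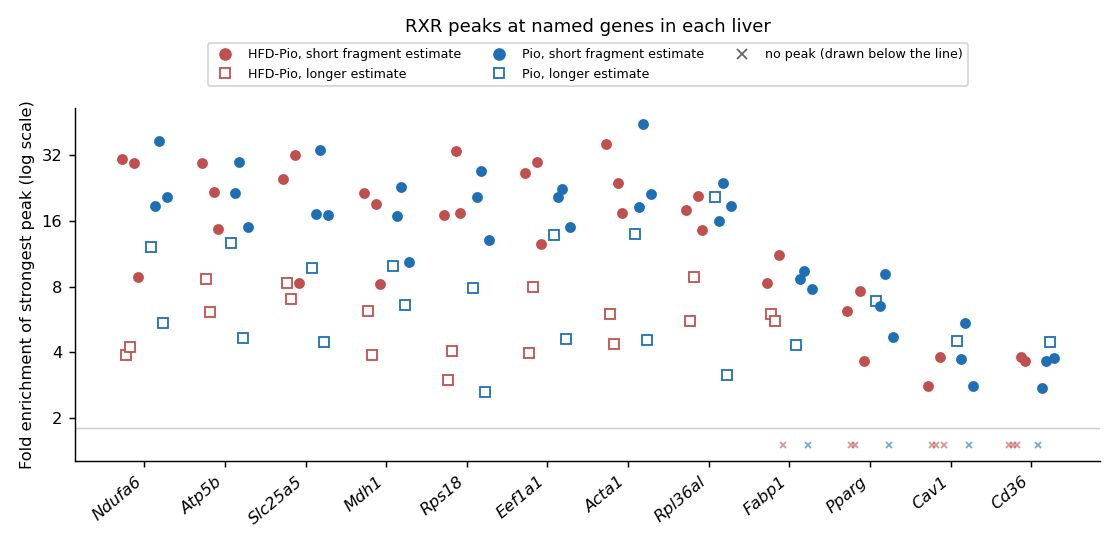
Fold enrichment of the strongest peak (log axis) at 12 genes in each of the 5 HFD-Pio (red) and 5 Pio (blue) livers; filled circles are libraries with a short fragment estimate, open squares those with a longer one, and crosses below the grey line are livers with no peak. The groups overlap at the 8 genes on the left, which were called in 10 livers, and the low values there are mostly open squares, while Pparg, Cav1 and Cd36 are called in fewer livers at 2.74 to 9.11.

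Peak lists hold no expression values, so the labelled tissue was looked at through the genes that carried peaks. Of 25 hepatocyte genes 1 (4%) was recurrent on both diets, Pck1, the gluconeogenic enzyme, in 3 HFD-Pio and 5 Pio livers at 3.97 to 10.02. Hpx, hemopexin, had peaks in 3 Pio livers at 2.73 to 3.03, outside exons, and in 0 HFD-Pio livers. Markers of other tissues were recurrent on both diets in 3 of 8 intestinal genes (Krt20, Lgals4 and Vil1), 3 of 6 smooth muscle genes (Acta2, Actg2 and Tagln), 3 of 10 neural genes (Tubb3, Syt1 and Snap25), 1 of 8 skeletal muscle genes (Acta1), and 0 of the red cell, immune and exocrine pancreas genes, against 7.81% of all genes. Acta1, Acta2, Actg2 and Tubb3 are actins and a tubulin, families recurrent on both diets in 15 of 18 listed members. Counted by peaks in exons, 1 of 10 neural genes was recurrent on both diets. The peaks of Syt1 and Snap25 lay outside exons in all livers that had one, and Syt1 had no single site recurrent on both diets. Prss2, a trypsinogen, had peaks in 3 HFD-Pio livers at 2.75 to 4.69 and in 0 Pio livers. Summed over a list, HFD-Pio livers had 0 to 4 intestinal, 2 to 4 smooth muscle and 1 to 4 neural genes with a peak, and Pio livers 1 to 6, 3 to 4 and 1 to 6. The part of other tissues in these results was not tested.

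Sites seen on 1 diet alone were few and weak. The 14 HFD-Pio sites were each called in 3 livers, with mean fold enrichments of 3.11 to 6.90, and 12 of the 14 rested on the 3 libraries with a short estimate. The highest was Gm7191, a copy of Gapdh sequence, at 10.3, 6.72 and 3.66 in replicates 1, 4 and 5. Coding exons of Acsl5, an acyl-CoA synthetase, and of Oaz2, an antizyme, both had 4.69, 3.81 and 3.66 in the same livers. Acsl5 and Oaz2 were not among the 52 genes seen in HFD-Pio alone, so the pattern holds for these sites and not for the genes. The others named by rule were Rps12-ps5 in an intron of Wdr62, an intron of Pde4d and intergenic sites on chromosomes 2 (2 sites) and Y. The peaks at the 14 sites had a median of 3 tags at the summit, against 9 at sites recurrent on both diets and 3 at single-library sites.

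The 127 Pio sites comprised 110 called in 3 livers and 17 called in 4, with mean fold enrichments of 2.67 to 6.43. Pio replicate 1 was among the livers at 80 of the 127, and 44 rested on libraries with a short estimate alone. Exons held 55.9% of them and pseudogenes 29.1%, and their median was 4 tags at the summit. The highest of the 17 was Gm8168, a copy of Eif3h sequence, at 4.56, 5.61, 6.38 and 5.63 in Pio replicates 1, 2, 3 and 5. The other named sites were an intergenic site on chromosome 14, an immunoglobulin segment (Ighv5-6), the 3′ UTR of Arpc4, pseudogenes in introns of Fam234a (matching Eif4a1) and Arhgap26 (Gm15335), Gm11599 (matching Rps2) and a coding stretch of Rbmxl1, whose window is printed above. At Rbmxl1 the values were 5.32, 4.68, 4.56 and 2.82 in the same 4 livers. Arpc4 and Rbmxl1 were not among the 95 genes seen in Pio alone, so here too the pattern holds for the sites and not for the genes.

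Genes seen on 1 diet alone were weakly enriched, which is likewise a description, since they were chosen for having 0 peaks on the other diet. Of the 52 HFD-Pio genes 46 were called in 3 livers and 6 in 4, and of the 95 Pio genes 90 in 3, 4 in 4 and 1 in 5. Mean fold enrichment over the livers called was 2.79 to 4.51 in the HFD-Pio genes (median 3.36) and 2.76 to 5.72 in the Pio genes (median 3.66). The genes in 4 HFD-Pio livers were Igsf21, Lrch3, Sema3c, Adamts18, Meis2 and Dhx36, at means of 3.11 to 3.73, and those in 4 Pio livers were Palm2, Chn2, Gm45861 and Nox1, at means of 3.73 to 4.78, all named after their values were seen. The single gene in 5 Pio and 0 HFD-Pio livers was Cblb, a ubiquitin ligase, also named after its values were seen. Its 5 peaks, of 2.73 to 4.44, were at 5 different places in its introns, and each was found in 1 liver.

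Within each fragment class fewer sites were seen in HFD-Pio alone than in Pio alone, with small numbers of livers. Among the 3 HFD-Pio and 3 Pio libraries with a short estimate, 16 sites were called in all 3 HFD-Pio and no Pio liver, 66 in all 3 Pio and no HFD-Pio liver, and 1937 in all 6. Among the 2 and 2 libraries with a longer estimate the numbers were 16, 289 and 194. The smallest p that a single site can reach is 0.1 with 3 against 3 and 0.333 with 2 against 2 (two-sided Fisher's exact test). The class itself separated sites. 93 of the 2032 sites had no peak in any library with a longer estimate, and the highest of the sites called in all 6 short libraries and no other were coding exons of Rps19, Arpc3 and Bcap31 and the pseudogenes Gm11972 and Gm8419. At Rps19 the values were 16.1, 6.72 and 6.86 in HFD-Pio replicates 1, 4 and 5 and 8.39, 12.8 and 5.88 in Pio replicates 2, 3 and 5. Sites confined to libraries with a longer estimate reached at most 3 livers, at an intron of Agmat (4.99 in HFD-Pio replicate 3, 5.32 and 4.36 in Pio replicates 1 and 4).

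Pairs of livers were also compared. Of the sites of the smaller list in a pair, 10.7% to 59.5% were shared across the 25 pairs of 1 HFD-Pio and 1 Pio liver, with a median of 29.7%. Within diets the medians were 19.6% over 10 HFD-Pio pairs and 35.5% over 10 Pio pairs. The median between the diets lay between the medians within them, and the ranges overlapped. By class, the median between the diets was 31.2% over 9 pairs of short libraries, 29.8% over 12 mixed pairs and 16.4% over 4 pairs of longer ones. Within HFD-Pio it was 22.0% over 3 short pairs, 21.4% over 6 mixed pairs and 17.1% in 1 pair of longer ones. Within Pio it was 33.2% over 3 short pairs, 44.3% over 6 mixed pairs and 35.4% in 1 pair of longer ones. Among longer libraries the median between the diets was thus below the values within both.

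The sites recurrent on both diets were looked for in the other groups. In WT livers without Pio 27 of the 2032 (1.33%) were recurrent on control diet and 23 (1.13%) on HFD, out of 89 and 50 recurrent sites in these groups. Of the single-library sites, 0.0108% and 0.00601% were recurrent there. In livers lacking PPARγ, where peaks were called at another threshold, 37.5% to 41.2% of the 2032 were recurrent in each of the 4 groups, with and without Pio, against 0.871% to 1.07% of the single-library sites. These groups were not compared further here.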

How the data were processed

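Peak tables were available for RXR ChIP-Seq of 5 HFD-Pio and 5 Pio WT livers, each called by the authors against the input of the same liver. Per the file headers, peaks were called with MACS2 version 2.1.1.20160309 on mm10 at a p-value cutoff of 0.001, and the fragment length was estimated from each library. Alignment was with Novoalign according to the study. The deposited columns used were fold enrichment (a ratio of ChIP to input at the summit), pileup (a tag signal at the summit), and −log10 p and q values. The tables hold no read counts outside peaks, so no test on read counts was made, and depth is known only as tags kept, 2.04 to 4.26 megatags per library. A narrowPeak file deposited beside each table held the same peaks in 40 of 40 ChIP libraries, and the table was used.

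Rows with the same interval were reduced to the strongest summit, and chromosomes 1 to 19, X and Y were kept. Overlapping intervals of the 10 libraries were merged by at least 1 base into sites. The summit of the strongest peak placed a site in GENCODE M21, in the order coding sequence, UTR, other exon, intron, and pseudogenes were taken from the same annotation. Genes took peaks in the gene body, 5 kb upstream and 1 kb downstream, and a symbol with several gene IDs took the lowest Ensembl number. Libraries with a fragment estimate under 60 bp formed the short class. Measures per library were compared with an exact two-sided permutation test over livers, sites by Fisher's exact test (two-sided) of livers called, and log2 fold enrichment at sites called in all 10 livers with limma, all with Benjamini-Hochberg adjustment. No pseudocount was needed, since all 10 livers had a value there. No test compared a list with other genes. Intervals are not given because peak lists hold no totals.

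Summit windows of 101 bp were compared with GENCODE coding sequences, spliced from the RefSeq GRCm38.p6 genome, with megablast (at least 80 bases at 90% identity), and direct repeats were sought within 100 bp of the summit. All printed sequences are from that genome. The text names, by rule, up to 4 genes of each list recurrent on both diets with the most livers and highest mean fold enrichment, list members seen on 1 diet alone, a fixed set of receptors and exemplar targets, and the top sites of each class, and the text says where a name was added after its values were seen. A few genes that the rule took are not reported here. The members and lists were chosen with earlier results of these data known. Scripts were tested on simulated data. Software was Python 3.11.15, pandas 2.3.3, scipy 1.17.1, pysam 0.24.0, BLAST+ 2.17.0, R 4.3.3 and limma 3.58.1.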

Additional observations from a re-analysis of the deposited data

Results flagged for a closer look

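In 79 groups of 5 livers the highest and lowest liver were compared with the others by Dixon's test, and 9 groups held a liver that stood apart. Chance marks about 1 group in 20, and the genes share livers. Pio replicate 1 had a median fold enrichment of 4.56, against 3.64 to 3.75 in the other Pio livers. Pio replicate 4, with the longest fragment estimate (263 bp) and the fewest peaks (1905), was low at 7 genes. Its fold enrichment was 3.29 at Acta2 (12.9 to 21.2 in the other Pio livers) and 4.30 at Calm2 (15.2 to 24.9). Among genes of translation it was 3.16 at Rpl36al (15.95 to 23.97), 2.65 at Eif1 (15.3 to 19.8) and 3.06 at Eef1g (13.1 to 19.6). It was 3.93 at the chaperonin Hspe1 (10.2 to 12.6) and 2.85 at the splicing factor Hnrnpa2b1 (11.5 to 19.7). HFD-Pio replicate 4 was low at Syt1, a synaptic gene, with 2.86 against 3.66 to 3.99 in the other HFD-Pio livers. The part of the library in these values was not tested.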

How the results depend on the processing

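No difference between the diets in the 5 measures per library passed an adjusted p of 0.05 in any of 80 tests, each of 1 measure under 1 alternative setting (exact permutation tests, smallest adjusted p = 0.397). The settings with 3 against 3 short libraries, 2 against 2 longer ones (smallest p 0.1 and 0.333) and sign flips over 5 pairs could not reach 0.05. The difference (HFD-Pio minus Pio) in exon share turned to 1.61 percentage points in libraries with a short estimate alone and was -14.66 in those with a longer one, that in pseudogene share turned to 1.13 points and was -9.28 in the same classes, and turned to 0.185 points with peaks of at least 5-fold enrichment, and that in median log2 fold enrichment to 0.0727 for peaks whose −log10 q reached 5. The log2 number of peaks differed by -1.06 for such peaks and by -0.760 with at least 5-fold enrichment, against -0.136. Leaving out 1 liver at a time gave -0.714 to 0.371 for the log2 number of peaks, where the sign turned in 5 of 10 cases, -0.579 to -0.128 for log2 covered bases, -8.98 to -2.18 for exon share, -5.47 to -1.08 for pseudogene share and -0.0877 to -0.00688 for log2 fold enrichment. Limma called 0 sites under 21 alternatives (smallest adjusted p = 0.197). Fisher's exact test called 0 under 16, which says nothing of stability, since a p of 0.00794 for 1 site does not pass the adjustment.

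The numbers of sites moved with the rule, and the cause was not tested where the rule itself did not set it. With 1 liver left out, sites recurrent on both diets numbered 832 to 2040, in HFD-Pio only 0 to 47 and in Pio only 22 to 428, and genes 824 to 1681, 8 to 177 and 8 to 210. Without HFD-Pio replicate 1, 4 or 5 the sites on both diets fell to 832, 833 and 974, and those in HFD-Pio only to 1, 2 and 0, since 3 of the 4 remaining livers then had to include a longer estimate. Sites in Pio only were 428 and 285 without HFD-Pio replicates 1 and 4 and 68, 46, 22 and 51 without Pio replicates 1, 2, 3 and 5, and sites in HFD-Pio only were 47 without Pio replicate 3. Genes on both diets were 824, 876 and 857 without HFD-Pio replicates 1, 4 and 5. Genes in HFD-Pio only were 12, 33, 24 and 8 without HFD-Pio replicates 1, 3, 4 and 5 and 177 without Pio replicate 3, and genes in Pio only 210 and 174 without HFD-Pio replicates 1 and 5 and 63, 26, 8 and 28 without Pio replicates 1, 2, 3 and 5.

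Given as both diets, HFD-Pio only and Pio only, sites numbered 583, 0 and 49 for peaks whose −log10 q reached 5, 904, 0 and 84 with at least 5-fold enrichment, and 804, 0 and 17 with at least 4 of 5 livers. They were 4589, 391 and 764 in the short class alone (at least 2 of 3 livers), 194, 16 and 289 in the longer class, 800, 5 and 75 with the same number of peaks (1905) taken from each library, and 239, 7 and 19 outside exons and pseudogenes. In the same order, genes numbered 324, 0 and 16, then 467, 0 and 33, then 674, 6 and 5, then 2929, 326 and 564, then 172, 72 and 176, then 473, 8 and 32, and then 514, 46 and 69. When genes were counted as those holding a site of each class, a rule chosen after seeing the data, they were 965, 9 and 90. Of the 119 genes and sites that the rule took, 15 to 47 moved by more than the spread between livers under the 6 settings other than leaving out a liver, most (47) with at least 5-fold enrichment. Peaks of a single library had a median of 3 tags at the summit, and the effect of depth (2.04 to 4.26 megatags) on the calls was not tested.

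The replicate numbers of the labels were tried as pairs. Same-number livers deviated from their group means with correlations of -0.332 to 0.174 over sites. Across all pairs of an HFD-Pio and a Pio liver, correlations followed the fragment class. They were -0.356 to -0.0266 between classes and 0.0665 to 0.4 within a class. Same-number livers of replicates 1 to 4 were of different classes, so this check cannot tell whether the numbers pair the livers. The numbers were not taken as pairs. With the replicate block the differences were as above (-0.136, -0.365, -4.90, -3.04 and -0.0664), with adjusted exact sign-flip p-values of 0.625 to 0.875 over 5 pairs, a design that cannot reach 0.05, and limma with the replicate block called 0 of 187 sites (3 at an unadjusted p below 0.05).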

Other observations

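Beyond the lists, the genes with recurrent peaks often had several exons covered. Of 1001 genes with a recurrent site in coding sequence 449 (44.9%) had at least 2 such sites, and Anxa2, a calcium-dependent membrane protein named after its values were seen, had 8. Further parents of copies were named in the same way. Among sites recurrent on both diets, outside protein-coding exons and matching a coding sequence, 13 each fell to Actg1, a cytoplasmic actin, and Rps6, a ribosomal protein, 11 to Rpl19 and 10 to the histone gene H3f3a. In 10 WT libraries without Pio the fragment estimate was 183 to 292 bp, and 1.08% to 6.17% of peaks lay in protein-coding exons, against 8.45% to 35.6% in the 10 libraries with Pio. Among these WT libraries short estimates were seen with Pio alone, but the longer estimates with Pio, 169 to 263 bp, overlapped those without it. In livers lacking PPARγ and without Pio, where peaks were called at another threshold, 73.0% to 86.9% of peaks lay in protein-coding exons. The part of Pio in these properties of the libraries was not tested.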
